A study of Rattus norvegicus with 9 samples.

Results

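The 100 genes with the most counts in control rat kidney made up 29.2% ± 2.08 of all counts there (SD, n = 3). They were selected from a table of 22637 Ensembl gene identifiers as the rows with the highest mean CPM (a gene's counts divided by its library's total and multiplied by 1000000) over the 3 control libraries. The study sequenced polyadenylated RNA from kidneys of rats, with the strain given as SD. There were 3 libraries each of control kidneys, of a chronic kidney disease model (CKD below) and of kidneys whose titles name treatment by mesenchymal stem cells (MSC below). The title of the series speaks of cells infused under ultrasound into the parenchyma of CKD rats. The sources used here do not give age, the way the disease was induced, the origin and dose of the cells or the interval before sampling. Nor do the labels say whether the replicates were separate animals, so p-values measure the spread between these libraries, which may be technical.

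As background, the RNA of a kidney is dominated by the tubules. Proximal tubule cells reabsorb most of the filtrate and carry many mitochondria, and abundant messages in bulk kidney RNA are commonly those of mitochondria, transporters, metabolic enzymes and the translation machinery. A few such messages can fill a large part of a library, and because counts are shares of a fixed total, a rise of some lowers the share of the rest. In bulk tissue, fewer cells of a type and less RNA per cell cannot be told apart. The deposited table gives identifiers without names, and 0 of the 22637 could be paired with a symbol in the gene table used here. The members are therefore described by their place in the control ranking (the rank-1 gene has the most counts), only 4 identifiers are printed, and no function is assigned to any of them. For the same reason the kidney label was not checked against marker genes. A high CPM also reflects a long transcript, and gene length was not used here, so the ranks order counts and not molecules.

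All 100 members passed the filter on low counts that 17584 genes passed, and the smallest member count in any library was 3861, so counting error was small for every member. Library totals ran from 47633344 to 58546847 counts. They did not overlap between the 3 groups and were lowest in MSC kidneys, so depth and group cannot be told apart. Within their groups CKD replicate 2 and MSC replicate 1 stood apart. By CPM, 71 of the 100 members were lowest of the 3 CKD libraries in replicate 2, and 74 were lowest of the 3 MSC libraries in replicate 1.

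At the border of the selection, the rank-99 and rank-100 genes averaged 876 and 874 CPM in controls, and the rank-101 and rank-102 genes averaged 868 and 867. When the selection was repeated with each control left out, 94, 98 and 95 of the 100 genes were chosen again, and the share read in the control left out was 28.0%, 27.7% and 31.4%.

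The members' total share overlapped between the groups, while its make-up shifted. In the 3 controls the members took 28.2%, 27.8% and 31.6% of all counts, in the CKD kidneys 28.6%, 23.7% and 28.4%, and in the MSC kidneys 23.5%, 29.8% and 29.9%. The ranges of all 3 groups overlapped, and CKD replicate 2 and MSC replicate 1 held the lowest shares. MSC kidneys averaged 0.864 percentage points more than CKD kidneys, less than the spread within either group (two-sided exact permutation test, p = 0.6, n = 3 each, smallest possible p 0.1). Without MSC replicate 1 that difference was 2.97 points, and without CKD replicate 2 it was -0.74 points. Because the controls chose the members, the control share is a description and was not tested against the others.

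The mean summed shares of the 10 leading genes and of the 90 below them moved in opposite directions from CKD to MSC kidneys. Ranks 1 to 10 took 12.8%, 16.2% and 15.3% of counts in MSC kidneys, all above the 12.4%, 10.3% and 11.3% of CKD kidneys, while the controls held 12.2%, 12.5% and 14.1%. This separation was one of raw shares. With TMM-scaled CPM (totals adjusted for composition), the median log2 difference of these 10 genes from the CKD mean was 0.12 in MSC replicate 1, within the CKD range of -0.27 to 0.17, and 0.56 and 0.45 in MSC replicates 2 and 3. Ranks 11 to 100 took 10.7%, 13.6% and 14.5% in MSC kidneys against 16.2%, 13.3% and 17.0% in CKD kidneys, with 1 CKD library, replicate 2, inside the MSC range. Controls held 16.1%, 15.3% and 17.5% for these 90 genes. Taken as a share of what remained outside the 10 leading genes, the 90 genes held 15.2% ± 2.60 of counts in MSC, 17.5% ± 2.31 in CKD and 18.7% ± 1.49 in control libraries (SD, n = 3 each), and the MSC and CKD libraries overlapped. The division at rank 10 was looked at with values known and was not tested.

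**Figure D1:**
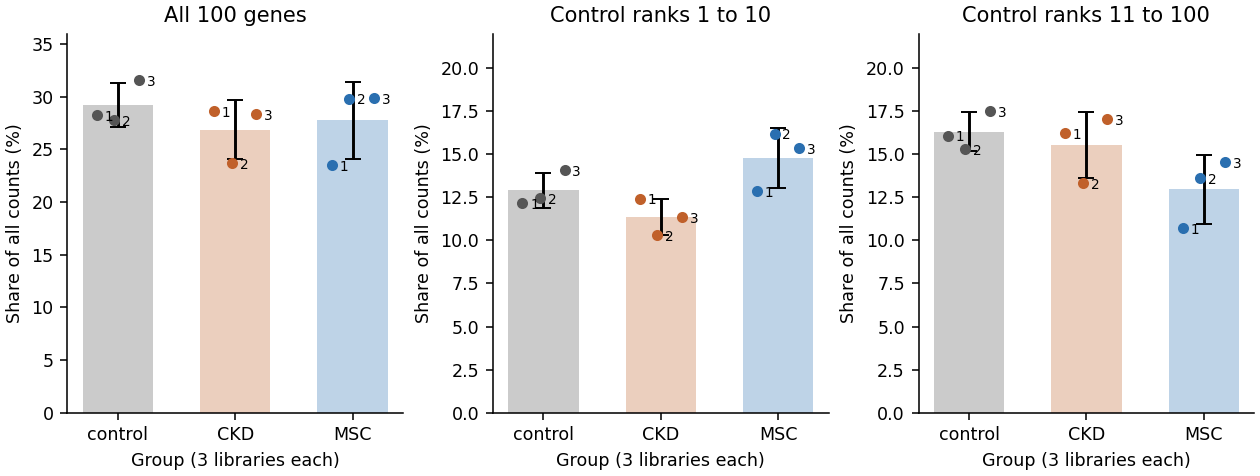
Share of all counts, in percent, held by all 100 genes, by control ranks 1 to 10 and by control ranks 11 to 100, in each library (points, numbered by replicate) with the group mean (bar) and SD (whisker), n = 3 a group. The 10 leading genes take 12.8% to 16.2% in MSC kidneys, above every CKD library as a raw share but not with TMM-scaled CPM, while the total share of the 100 overlaps between all groups.

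A single gene led every library. The rank-1 gene took 4.30%, 4.51% and 5.27% of all counts in controls, 4.47%, 3.89% and 4.04% in CKD kidneys and 4.63%, 5.44% and 4.88% in MSC kidneys. As raw shares, MSC values lay above all CKD values. The fitted log2 fold of 0.25 ± 0.25 (SE) did not pass the test (edgeR quasi-likelihood test, adjusted p = 0.501). The rank-2 gene stood at 13069, 13573 and 14608 CPM in controls, 13478, 10601 and 11791 in CKD and 14864, 19372 and 18544 in MSC kidneys. By CPM every MSC value was above every CKD and control value, with a log2 fold against CKD of 0.53 ± 0.24 (edgeR adjusted p = 0.137). With TMM-scaled CPM, MSC replicate 1 lay below CKD replicate 1 for both the rank-1 and the rank-2 gene. For the rank-2 gene it also lay below control replicate 3. The rank-5 gene was the only one of the 10 that passed the test, at 9164, 9912 and 10358 CPM in controls, 9613, 7758 and 9398 in CKD and 12963, 18436 and 16667 in MSC kidneys. Its MSC values lay above all CKD and control values, and its log2 fold of MSC against CKD was 0.82 ± 0.25 (edgeR adjusted p = 0.0438). That call was lost in 8 of the 9 fits that left out 1 library, all but the one without MSC replicate 1. It was also lost in the fit of the MSC and CKD libraries alone and in a fit with replicate number as a further term. In all, 7 of the 10 leading genes had a positive fold of MSC against CKD, with a median log2 fold of 0.41 over the 10. The number 7 was the same in each of the 20 alternatives. By CPM, 7 of the 10 had all MSC values above all CKD values, against 19.9% of all tested genes. By TMM-scaled CPM, 4 had so, against 22.1%. The exceptions by CPM were the genes of rank 7, 8 and 10, whose MSC values overlapped those of CKD kidneys. The rank-8 gene ranged from 1294 to 5609 CPM among the MSC kidneys.

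MSC and CKD kidneys, the comparison in which no library chose the members, differed in 26 of the 100 genes (edgeR, adjusted p under 0.05). Among all 17584 tested genes the called share was 22.8%, so the number of calls was near the background. The directions were uneven: 22 members fell and 4 rose, against 11.4% lower and 11.4% higher over all tested genes. The median log2 fold of the members was -0.43, against 0.004 over all tested genes. The called decreases ran from -2.26 to -0.49 on the log2 scale with a median of -1.21, and 13 of them were at least 2-fold, a share of 13% against 3.16% of all tested genes. The 4 increases ran from 0.82 to 1.44, and 2 of them were at least 2-fold, against 7% of all tested genes.

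The number of calls rested on single libraries more than its direction did. Leaving out CKD replicate 1, 2 or 3 gave 9, 38 or 8 called members, of which 8, 36 and 8 were lower. Leaving out MSC replicate 1, 2 or 3 gave 13, 6 or 39, of which 10, 6 and 35 were lower. The share of all tested genes that was called moved as well, between 8.37%, without MSC replicate 2, and 25.9%, without CKD replicate 2. It was 9.87% and 9.11% without CKD replicate 1 or 3, 10.98% without MSC replicate 1 and 20.9% without MSC replicate 3. Without CKD replicate 1, CKD replicate 3 or MSC replicate 2, the called share of members was below that of all tested genes. Calls by direction over all tested genes were not compared for the fits that left out 1 library. The members' median log2 fold stayed below 0 in each of these fits and was nearest to 0, at -0.27, when MSC replicate 1 was left out. At an unadjusted p under 0.05, 48 members differed, against 38.4% of all tested genes. DESeq2 called 50 members, 39 lower and 11 higher, against 31.7% of all tested genes, and limma-voom called 36, against 26.5%. A fit of the 6 MSC and CKD libraries alone called 14, against 16.6%.

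**Figure D2:**
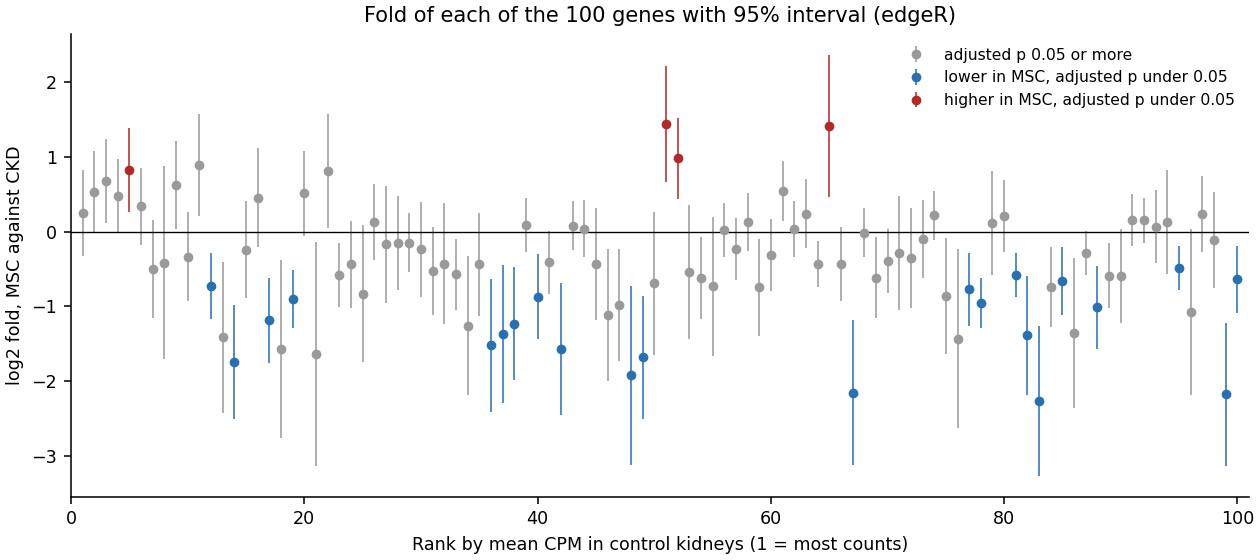
Fitted log2 fold of MSC against CKD kidneys (vertical axis, points, with 95% intervals as lines) for each of the 100 genes by its control rank (horizontal axis), coloured by direction where the edgeR adjusted p was under 0.05. Of the 100 genes 22 are called lower, all beyond rank 10, and 4 are called higher, at ranks 5, 51, 52 and 65.

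The same unevenness reached well beyond the members. Of the 100 genes ranked 101 to 200 in controls, 25 were lower and 4 higher in MSC than in CKD kidneys (edgeR adjusted p under 0.05), with a median log2 fold of -0.39. Of the 800 genes ranked 201 to 1000, 182 were lower and 36 higher, or 22.8% and 4.5%, with a median of -0.24. Ranks 11 to 100 held 22 lower and 3 higher genes with a median of -0.46. The predominance of decreases was therefore shared by the next ranks of abundance. The 10 leading genes as a group, with 0 lower and 1 higher and a median of 0.41, were placed otherwise. The border at rank 10, set with values known, did not divide single genes by direction. Log2 folds were -0.50, -0.41 and -0.33 at ranks 7, 8 and 10. They were 0.89 and 0.82 at ranks 11 and 22, among 24 positive and 66 negative folds at ranks 11 to 100. Differences between these bands were not tested.

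**Figure D3:**
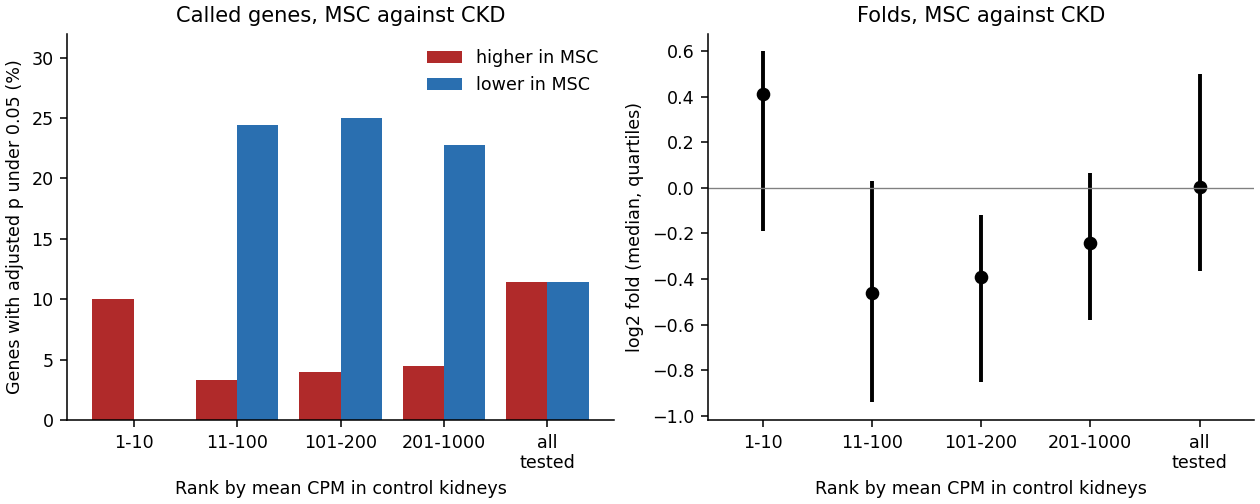
Left, percent of genes called higher (red) or lower (blue) in MSC than in CKD kidneys at an edgeR adjusted p under 0.05, by control rank. Right, median log2 fold (point) with quartiles (line) for the same bands. Ranks 11 to 100, 101 to 200 and 201 to 1000 have 22.8% to 25% of genes lower and 3.33% to 4.5% higher, against 11.4% each way over all tested genes.

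The largest decrease among the called members belonged to ENSRNOG00000053979, the rank-83 gene. It stood at 1093, 1061 and 816 CPM in controls, 968, 451 and 789 in CKD kidneys and 81.1, 144 and 245 in MSC kidneys. The MSC values were all below the other 6 libraries, and CKD replicate 2 was the nearest to them. Its log2 fold of MSC against CKD was -2.26 ± 0.44 (SE, edgeR adjusted p = 0.0112), a 4.8-fold decrease, and its rank went from 83 in controls to 129 in CKD and 1041 in MSC kidneys.

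ENSRNOG00000032857, the rank-99 gene, was next. Controls had 1141, 977 and 511 CPM, CKD kidneys 1100, 442 and 535, and MSC kidneys 115, 180 and 175. Controls and CKD kidneys covered the same range, with 1 or 2 high libraries in each, and the MSC kidneys lay below all of them. The log2 fold of MSC against CKD was -2.17 ± 0.42 (SE, edgeR adjusted p = 0.0109), a 4.51-fold decrease. Over the 20 alternatives run, the log2 fold of this gene ran from -2.46 to -1.64, that of ENSRNOG00000053979 from -2.76 to -1.93, and both kept an adjusted p under 0.05 in each.

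ENSRNOG00000031053, the rank-51 gene, had the largest increase. It stood at 797, 1247 and 1675 CPM in controls, 1128, 984 and 1094 in CKD kidneys and 1977, 3556 and 3256 in MSC kidneys. The controls were spread widely and the CKD values closely, and by CPM every MSC value was above both. With TMM-scaled CPM, MSC replicate 1 lay below control replicate 3, though still above the CKD libraries. Its log2 fold of MSC against CKD was 1.44 ± 0.34 (SE, edgeR adjusted p = 0.0208), a 2.71-fold increase, and it moved from rank 63 in CKD to rank 20 in MSC kidneys. The call was lost when CKD replicate 1 (edgeR adjusted p = 0.0591), CKD replicate 3 (0.0598) or MSC replicate 2 (0.0709) was left out, and held in the other 17 alternatives.

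ENSRNOG00000000168, the rank-65 gene, was less firm. It had 1447, 972 and 910 CPM in controls, 1083, 1002 and 367 in CKD kidneys and 1642, 3191 and 1693 in MSC kidneys. MSC replicate 2 was high and CKD replicate 3 low within their groups, and every MSC value was above the other 6. The log2 fold was 1.42 ± 0.42 (SE, edgeR adjusted p = 0.0406). It kept its sign in all 20 alternatives, between 1.01 and 1.73, but 10 of them, 8 leaving out 1 library, gave an adjusted p over 0.05, up to 0.139 without MSC replicate 2 (edgeR). The other fits past 0.05 were those of the 6 MSC and CKD libraries alone and of the libraries without CKD replicate 2 and MSC replicate 1.

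**Figure D4:**
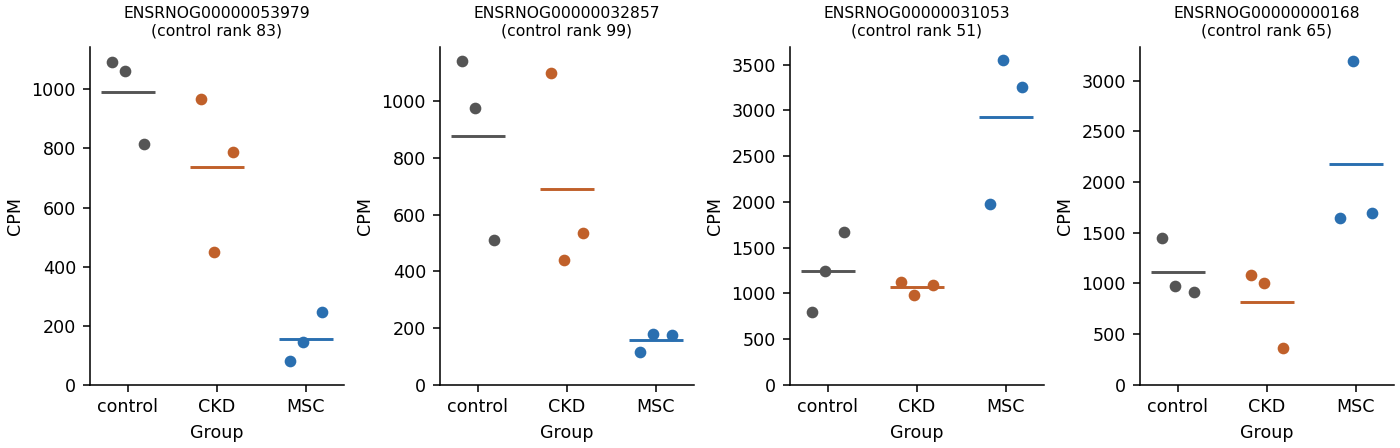
CPM (vertical axis from 0, a scale of its own in each panel) of the 2 members with the largest decrease and the 2 with the largest increase of MSC against CKD among those passing the test, in each library (points) with group means (lines), n = 3 a group. By CPM, MSC values lie below all others for the 2 genes at left and above all others for the 2 at right. With TMM-scaled CPM the MSC values of ENSRNOG00000031053 overlap those of the controls.

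Of the 26 calls, 6 held in each of the 9 fits that left out 1 library, all of them decreases. They were the 2 genes named above and those of rank 14, 19, 67 and 78. The rank-14 gene was the most abundant of these. It stood at 5161, 5070 and 5115 CPM in controls, 6422, 3727 and 6220 in CKD kidneys and 1082, 1994 and 1902 in MSC kidneys. It was nearly constant among the controls, and its log2 fold of MSC against CKD was -1.75 ± 0.34 (SE, edgeR adjusted p = 0.0107). The rank-67 gene had 1135, 556 and 905 CPM in CKD kidneys and 102, 189 and 305 in MSC kidneys, for a log2 change of -2.15 ± 0.43 (edgeR adjusted p = 0.012). The groups did not overlap. The rank-78 gene had the smallest adjusted p of the members (edgeR, 0.00552). Its CPM was 1038, 1203 and 1291 in CKD kidneys and 621, 621 and 609 in MSC kidneys, so the MSC values were almost equal, and its log2 fold was -0.96 ± 0.15. The rank-19 gene, with 4520, 3757 and 3848 CPM in CKD kidneys and 2332, 2035 and 2262 in MSC kidneys, changed by -0.90 ± 0.17 in log2 (edgeR adjusted p = 0.0107).

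Together the 22 genes that fell held 4.08%, 4.16% and 4.10% of all counts in controls and 4.30%, 3.35% and 4.45% in CKD kidneys. In MSC kidneys they held 1.58%, 1.75% and 2.24%. The 4 genes that rose held 1.34% ± 0.0806 in controls, 1.23% ± 0.124 in CKD and 2.42% ± 0.445 in MSC kidneys (SD over 3 libraries). Both sets were called on these MSC and CKD libraries, so these shares only restate the calls.

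Without regard to the test, 39 members had all 3 MSC values below all 3 CKD values by CPM and 18 had all above, against 20.4% and 19.9% of all tested genes. With TMM-scaled CPM these numbers were 27 and 10, against 21.2% and 22.1%. The scaling thus mattered for the count of separated genes, but members with lower MSC values were the more frequent under both. By CPM, the MSC values lay outside all 6 other libraries in 38 members below and 13 above, against 14.5% and 16.7% of all tested genes. The control values in that count are those that chose the members. With TMM-scaled CPM this count was not made, and it cannot exceed the 27 and 10 apart from CKD.

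For 38 of the 100 members the 95% interval of the fold of MSC against CKD lay within 2-fold either way, called genes such as those of rank 81 and 95 among them. A log2 fold within 0.1 of 0 was found for 8 members. The rank-43 gene, 1 of the 3 with the narrowest interval among these 8, had 1457, 1445 and 1497 CPM in controls, 1466, 1448 and 1358 in CKD and 1514, 1473 and 1595 in MSC kidneys. Its log2 fold of MSC against CKD was 0.08, with a 95% interval from -0.25 to 0.41. The rank-39 gene had a log2 fold of 0.09 (95% interval -0.27 to 0.45) and the rank-68 gene one of -0.01 (95% interval -0.34 to 0.31). At the other end, the rank-21 gene had 2656, 1254 and 3111 CPM in CKD kidneys and 272, 514 and 1515 in MSC kidneys. The groups overlapped, the spread within MSC kidneys was the widest of all members, and the log2 fold of -1.64 ± 0.66 did not pass the test (edgeR adjusted p = 0.103). The rank-48 gene had the next widest spread there (141, 210 and 539 CPM), against 1140.0, 713 and 1452 CPM in CKD kidneys. It passed the test with a log2 fold of -1.92 ± 0.53 (SE, edgeR adjusted p = 0.0326).

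The order of these genes changed little from control to CKD kidneys, with Spearman's rho of 0.916 between the group means across the 100 genes, against 0.720 from control to MSC kidneys. Since the control values chose the members, what follows is a description. No member was called by edgeR's quasi-likelihood test (0 of 100, against 0% of all tested genes), and limma-voom called 0 members, also against 0%. At an unadjusted p under 0.05 there was 1 member, against 6.55% of all tested genes, and DESeq2 called 0, against 0.404%. The median log2 fold of CKD against control was -0.15, and the members ranged from -0.85 to 0.58. The values of both groups were apart in 4 members, 2 lower and 2 higher in CKD kidneys, against 3.87% and 6.35% of all tested genes.

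The largest of those 4 folds was that of the rank-46 gene, with 1337, 1117 and 1637 CPM in controls, 1013, 589 and 770 in CKD kidneys and 209, 349 and 559 in MSC kidneys. By CPM the 3 groups formed steps without overlap. With TMM-scaled CPM, CKD replicate 2 lay below MSC replicate 3, so these 2 groups overlapped. The log2 fold was -0.85 for CKD against control and -1.11 for MSC against CKD (edgeR adjusted p = 0.0701). The rank-63 gene had 1286, 1146 and 947 CPM in controls, 1329, 2103 and 1882 in CKD and 2673, 1777 and 1935 in MSC kidneys. CKD and MSC kidneys overlapped above the controls, with a log2 fold of 0.58 for CKD against control. For the rank-10 gene that fold was -0.49, with 6332, 5129 and 5868 CPM in controls, 4319, 3934 and 4600 in CKD and 2478, 3409 and 4444 in MSC kidneys. For the rank-68 gene it was 0.24, with 1200, 1007 and 1074 CPM in controls, 1316, 1448 and 1312 in CKD and 1540, 1326 and 1240 in MSC kidneys.

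The lower values were most marked in CKD replicate 2. There the members' TMM-scaled CPM, in log2, lay at a median of -0.50 relative to the mean of the controls, against -0.04 and -0.01 for CKD replicates 1 and 3. The controls themselves lay at -0.02, -0.15 and 0.16 and the MSC kidneys at -0.96, -0.61 and -0.37. By this measure CKD replicate 2 was lower than MSC replicate 3, so the groups overlapped in this order. Its part in the results was not tested, and the counts without it are given above.

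**Figure D5:**
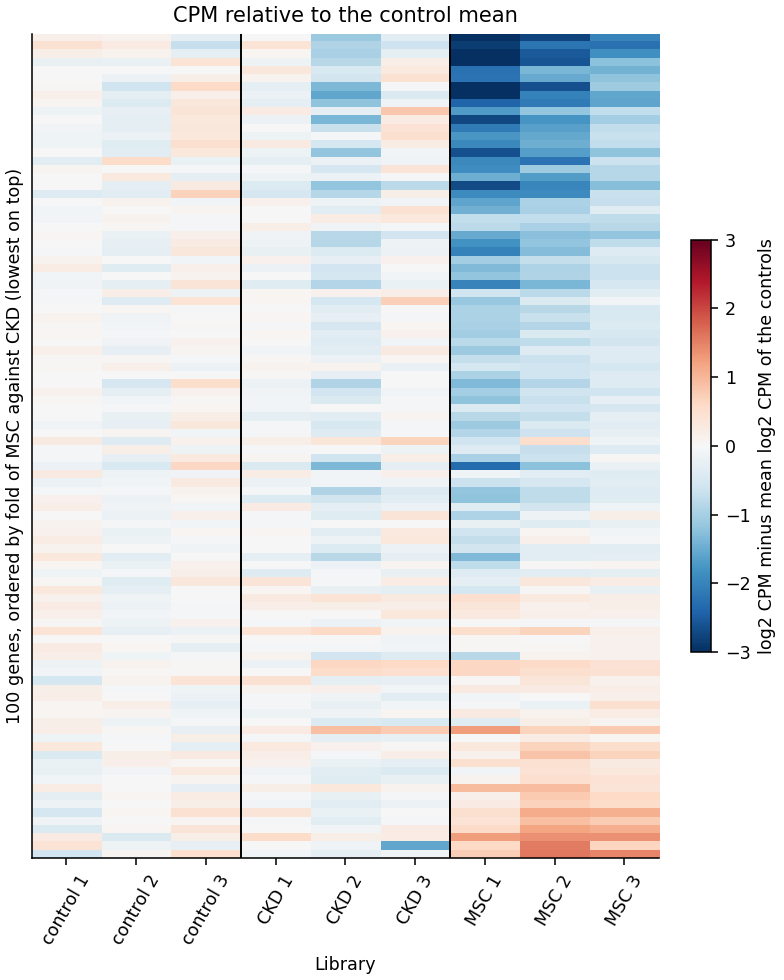
CPM of the 100 genes (rows, ordered by fold of MSC against CKD, lowest on top) in the 9 libraries (columns), as log2 difference from the control mean, from blue (lower) to red (higher). In the MSC columns 38 members lie below and 13 above all 6 other libraries by CPM, against 14.5% and 16.7% of all tested genes. With TMM-scaled CPM fewer members stand apart. The control values in that count are those that chose the members. CKD replicate 2 is the bluest of the CKD columns, as the lowest of its group in 71 members.

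MSC against control, again a description because the controls chose the members, had 46 members called (edgeR adjusted p under 0.05), against 32.3% of all tested genes. Of these 42 were lower and 4 higher, against 15.4% and 16.9%, and the median log2 fold was -0.64. At least 2-fold decreases numbered 25, against 4.36% of all tested genes. DESeq2 called 64 members and limma-voom 53, against 39.9% and 34.1%, and 63 had an unadjusted p under 0.05, against 45.1%. By CPM, 55 members had all MSC values below all control values and 17 had all above, against 19.9% and 29.7%. The count of 46 fell to 26 and 19 when control replicate 1 or 3 was left out, against 21.2% and 17.9% of all tested genes. It fell to 21 and 17 when MSC replicate 1 or 2 was left out, against 18.3% and 17.2%. This comparison shares the MSC libraries with that against CKD. All 22 genes called lower against CKD were also called lower against control, and 2 of the 4 called higher were called against control. For the rank-14 gene the log2 fold was -1.70 against control and -1.75 against CKD, and for ENSRNOG00000053979 these were -2.72 and -2.26. The rank-52 gene, at 1417, 898 and 1370 CPM in controls, 1759, 1367 and 1397 in CKD and 2876, 3119 and 3102 in MSC kidneys, had 1.21 against control and 0.98 ± 0.24 against CKD (edgeR adjusted p = 0.0221).

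The ranking itself changed more in MSC than in CKD kidneys. Of the 100 members, 86 were among the 100 highest genes of CKD kidneys and 68 among those of MSC kidneys, and 64 were in all 3 lists. In single libraries the members in the library's own first 100 numbered 96, 91 and 92 in controls, 92, 78 and 85 in CKD kidneys and 61, 67 and 75 in MSC kidneys, so the MSC libraries lay below all others and CKD replicate 1 lay within the control range. The controls chose the list, which favours them. Members at 1000 CPM or more numbered 84, 73 and 79 in controls, 80, 58 and 72 in CKD and 46, 54 and 61 in MSC kidneys. Of the 10 leading genes of controls, 8 were among the first 10 of CKD and 7 among the first 10 of MSC kidneys.

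The 14 members that left the first 100 in CKD kidneys stayed close to it, at a median rank of 114 and rank 155 at the lowest. The 32 that left it in MSC kidneys had a median rank of 144.5 there and reached rank 1041. Of these 32, 8 had been among the first 50 of controls. In MSC against CKD, 17 of the 32 were called lower, against 11.4% of all tested genes. Low values in the same MSC libraries chose these 32, so such calls are partly built in. Those that replaced them in MSC kidneys had a median control rank of 177.5. The lowest of them came from rank 2991, and 13 from beyond rank 200. The newcomers held 1.77% of counts in controls, 2.24% in CKD and 4.12% in MSC kidneys, values that follow in part from their choice on the MSC libraries.

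Replicates varied unequally. The coefficient of variation of CPM over 3 libraries had a median over the members of 14.5% in control, 16.2% in CKD and 21.8% in MSC kidneys, and it was above 25% in 18, 31 and 42 members. The rank-95 gene, at 842, 881 and 870 CPM in CKD kidneys and 656, 597 and 628 in MSC kidneys, passed at a log2 fold of only -0.49 ± 0.13 (SE, edgeR adjusted p = 0.0295).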

How the data were processed

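TRIzol-extracted RNA was, per the labels' protocols, captured on oligo(dT) beads and made into a strand-specific library. The submitters' processing notes name cutadapt, HISAT2, StringTie and the build Rnor_6.0; their versions, the annotation release and strand setting are not given in the sources used here. Unscaled whole-number counts for 22637 genes in 9 libraries, 3 a group, were deposited by the authors. Members were the 100 rows of highest mean CPM (count over column total, per 1000000) in controls; members and lists were chosen with earlier results of these data known. The whole table was fitted with edgeR 4.0.16 in R 4.3.3 (filterByExpr, TMM, robust quasi-likelihood, group the only term, all 9 libraries), two-sided, with Benjamini-Hochberg adjustment over 17584 genes and a threshold of 0.05. SEs were derived from the F statistic. The prior count of log2 CPM was 2. Simulated data without outlying libraries were also run through the test. They do not bear on calls that rest on single libraries. Alternatives were DESeq2 1.42.0, limma-voom (limma 3.58.1), other scalings, filters and member sets, a replicate block and leaving out libraries. Identifiers printed are the 2 called members with the largest and the 2 with the smallest log2 fold of MSC against CKD; the planned rule was longer, and without symbols it was cut to these, others being given by rank. The 19 planned gene lists, which need symbols, and promoter sequences were not used here. Bands of rank, and which genes are given by rank, were settled after values were seen. No 2 replicates agreed within sampling noise: the chi-square statistic per gene was 62.7 or more.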

Additional observations from a re-analysis of the deposited data

How the results depend on the processing

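No call of MSC against CKD changed sign under any alternative run, and CKD against control had 0 called members in each. Without 1 library, the called members of MSC against CKD ran from 6 to 39 (0 to 4 higher, 6 to 36 lower). The called share of all tested genes ran from 8.37% to 25.9%. In MSC against control the called members ran from 17 to 51 (1 to 4 higher, 15 to 48 lower), against 17.2% to 32.8%. The lowest counts, 6 and 17, came with 8.37% and 17.2%. The median log2 fold of MSC against CKD ran from -0.59 to -0.27, and the difference in share between MSC and CKD from -0.74 to 2.97 points. DESeq2 called 50 members in MSC against CKD (11 higher, 39 lower, against 31.7% of all tested genes). In MSC against control it called 64 (10 higher, 54 lower, against 39.9%). The cause was not tested. With library size only, 54 members were called in MSC against control (8 higher, 46 lower, against 27.8%). Fitting the 6 libraries compared gave 14 members in MSC against CKD (2 higher, 12 lower, against 16.6%), with fewer samples. Without both CKD replicate 2 and MSC replicate 1, an alternative added after seeing the data, MSC against CKD had 2 higher and 30 lower members, against 17.6%. Other member sets change the counts by their size. The 50 highest genes had 12 called in MSC against CKD (1 higher, 11 lower) and 20 in MSC against control (0 higher, 20 lower). The 200 highest had 55 (8 higher, 47 lower) and 89 (10 higher, 79 lower). For MSC against CKD the main fit called 22.8% of all tested genes, and for MSC against control 32.3%. The 100 highest over all 9 libraries had 7 higher in MSC against control, against 16.9% of all tested genes. The share of counts in control, CKD and MSC kidneys was 24.0%, 21.9% and 23.2% for the 50 highest, 35.9%, 33.6% and 33.1% for the 200 highest and 16.3%, 15.5% and 13.0% without the 10 highest. A fit with the replicate block called 35 members in MSC against CKD (4 higher, 31 lower, against 25.6% of all tested genes), 0 in CKD against control and 52 in MSC against control (against 34.3%). It kept 25 of the 26 calls and lost that of the rank-5 gene (edgeR adjusted p = 0.0559). Nothing in the labels ties same-numbered libraries to each other, and 3 of 9 same-numbered pairs had a correlation of deviations over 0.1, with 6 of 9 libraries correlating best with their own number. The share without mitochondrially encoded genes was not run for want of gene names, nor were the gene lists. The smallest member count in a library was 3861, and no fit at thinned depth was run.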
